A study of Sus scrofa with 7 samples.

Results

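The 8 genes GATA4, GATA6, SOX7, SOX17, HNF4A, FOXA1, FOXA2 and FOXA3 encode transcription factors of the endoderm, and their RNA was followed in porcine extra-embryonic endoderm (pXEN) cells and in 2 kinds of porcine embryonic stem cells. They were taken by symbol from the 29510 genes of the count and FPKM tables, where each symbol had 1 row. 7 of the 8 passed the filter on low counts and entered the test, together with 17447 genes in all. SOX7 did not pass. The question was which of these factors were on, which were off and which were shared between pXEN cells and ESCs.

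The primitive endoderm, or hypoblast, is the layer of the blastocyst that gives rise to the visceral and parietal endoderm of the yolk sac, and XEN cells are its cultured counterpart. GATA6 is among the earliest factors of this lineage, and in the mouse GATA4, SOX17 and SOX7 follow it. FOXA1, FOXA2 and FOXA3 are forkhead factors that can open closed chromatin, and HNF4A is a nuclear receptor that drives the apolipoprotein and plasma protein genes of visceral endoderm and liver. The GATA, FOXA and HNF4A proteins also act later, in the liver and gut of the embryo proper, so none of these genes marks the extra-embryonic lineage alone.

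RNA was sequenced from 3 pXEN lines, 2 lines of naïve-like ESCs (nESCs) and 2 lines of primed ESCs (pESCs), with 1 library per line. The pXEN lines came from inner cell masses of parthenogenetic in vitro blastocysts, were grown on mouse embryonic fibroblasts in LCDM medium with human LIF, CHIR99021, dimethindene maleate, minocycline and Y27632, and were sampled at passages 26, 26 and 23. The nESC lines were grown on the same kind of feeder with FGF, human LIF, PD0325901, CHIR99021, SB431542 and doxycycline and were at passages 21 and 22. The pESC lines, labelled as converted from naïve-like ESCs, were grown on mouse STO cells with activin A, bFGF, EGF and human LIF and were both at passage 20. Each medium went with 1 cell type, so that medium and cell type cannot be told apart, nor the feeder where pESCs are compared, and each p-value measures the spread between these few lines.

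The libraries held 10408164 to 12995720 counts, at which depth 3 counts, the floor of detection used here, correspond to 0.231 to 0.288 CPM (counts scaled by the library total). Floors and counting intervals cover counting error only. All 10 surface and matrix markers of extra-embryonic endoderm were detected in pXEN cells, with a sum of 13163 to 14880 CPM (counts scaled by the TMM library size) against 316 to 399 CPM in nESCs and 1645 to 1698 CPM in pESCs. The 12 listed markers of pluripotency summed to 108 to 184 CPM in pXEN cells, 270 to 330 CPM in nESCs and 1411 to 1477 CPM in pESCs. Of the 7 tested, 3 were called higher and 2 (SOX2 and ESRRB) lower in pXEN cells than in nESCs (edgeR, adjusted p below 0.05). Against pESCs 1 was called higher and 5 lower. Of all tested genes, 28.3% and 23.9% were called higher and 26.2% and 24.4% lower. SOX2 had 1633 to 2729 counts in the ESC libraries and 0, 30 and 0 counts in pXEN lines 1, 2 and 3. Some other markers did not follow the labels. POU5F1 had 0 to 5 counts in all 7 libraries, DPPA4 and ZFP42 were listed at 0 throughout, and NANOG had 177, 60 and 166 counts in the pXEN lines against 0 and 2 in nESCs and 21 and 22 in pESCs. Whether the gene models used for counting miss transcripts of POU5F1, DPPA4 and ZFP42 was not tested, so these zeros do not show that the genes were silent. The library of pXEN line 2 stood apart from the other pXEN libraries. Its 11 listed fibroblast and feeder markers summed to 613 CPM, against 13.2 and 34.4 CPM in lines 1 and 3, 65.0 and 70.6 CPM in nESCs and 123 and 196 CPM in pESCs. It also held 38 counts on the Y chromosome, against 1 and 3 in lines 1 and 3, 11 and 4 in nESCs, and 0 and 1 in pESCs. The pXEN lines are described as parthenogenetic, and reads of mouse feeder cells cannot be told apart from pig reads in a count table, so their part in these counts was not tested.

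A factor was called on where every line of a type had at least 1 FPKM (fragments scaled by gene length and a normalized library size) and more than 3 counts, off where no line had more than 3 counts, and low otherwise. In pXEN cells 7 of the 8 factors were on, and SOX7 was off. In nESCs GATA6 and FOXA1 were on, FOXA3 was low, and GATA4, SOX7, SOX17, HNF4A and FOXA2 were off. In pESCs GATA6, FOXA1 and FOXA3 were on, SOX17 and HNF4A were low, and GATA4, SOX7 and FOXA2 were off. In bulk RNA, GATA6 and FOXA1 were thus the factors that all 3 cell types shared. FOXA3 was shared by pXEN cells and pESCs, and SOX7 was off in all 3.

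Against nESCs, all 7 tested factors were called higher in pXEN cells (edgeR's quasi-likelihood test, Benjamini-Hochberg adjusted p below 0.05). Over all 17447 tested genes, 28.3% were called higher and 26.2% lower in that comparison. Against pESCs, the 7 factors were again called higher in pXEN cells, and there 23.9% of all tested genes were called higher and 24.4% lower. Both comparisons use the same 3 pXEN libraries. Between the ESC types, 5 factors were called higher in pESCs, where 19.0% of all tested genes were called higher and 13.3% lower. None of the 8 was called lower. GATA4, SOX17, HNF4A and FOXA2 passed the filter only with the pXEN libraries included. With the ESC libraries fitted alone, 2 of 3 tested factors were called higher and 1 lower. In that fit 3963 of all 16219 tested genes were called higher and 3231 lower.

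**Figure D1:**
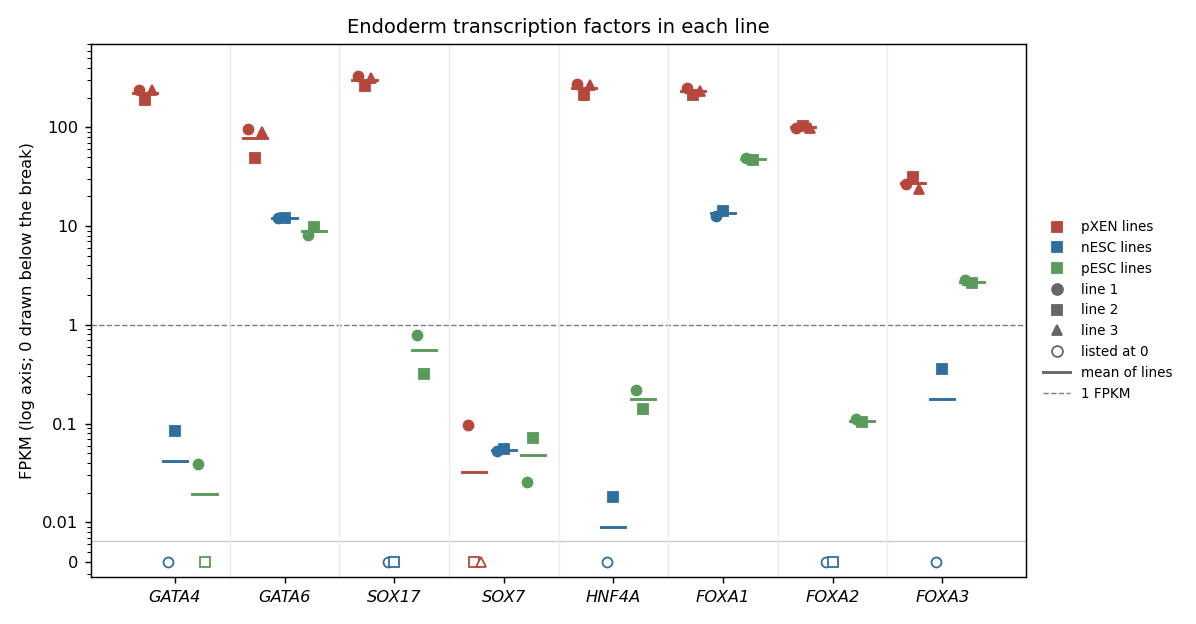
FPKM of the 8 endoderm factors in each of the 7 libraries, on a log axis with values of 0 drawn below the break. Each symbol is 1 line, horizontal bars are means over the lines of a type, and the dashed line is 1 FPKM. Red pXEN symbols lie above all ESC symbols for every factor except SOX7, and green pESC symbols lie above blue nESC symbols for SOX17, HNF4A and the FOXA genes.

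Per length, SOX17 had the highest level of the 8 in pXEN cells, at 304 ± 36.8 FPKM (SD, n = 3), and ranked 237 among the 29510 genes by mean FPKM. HNF4A followed at 252 ± 35.5 FPKM, FOXA1 at 233 ± 20.4 FPKM and GATA4 at 222 ± 29.5 FPKM. Each neighbouring pair among these 4 overlapped in range over the 3 lines, although SOX17 exceeded HNF4A in 3 of 3 lines. FOXA2 (100.3 ± 2.93 FPKM), GATA6 (78.7 ± 25.8 FPKM) and FOXA3 (27.3 ± 3.96 FPKM) came below with ranges that did not overlap their neighbours. The lower 2 ranked 1111 and 3513 among all genes. SOX7 ranked 20633 at 0.0325 FPKM. In the plot of FPKM by line, the pXEN lines lie apart from the ESC lines for all factors except SOX7.

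GATA4 and GATA6 are zinc finger proteins that bind the same short GATA motif, and they differed in their level in ESCs. GATA4 (ENSSSCG00000022383, Sscrofa10.2 chromosome 14, 16073218 to 16124413, plus strand) had 4828, 4436 and 5392 counts in pXEN lines 1, 2 and 3. In the nESC lines it had 0 and 2 counts, and in the pESC lines 1 and 0. It was therefore at or under the floor in all 4 ESC libraries. From the pooled counts, the ratio of pXEN cells to nESCs was 5376 (95% counting interval 1488 to 44395), and the gene was called higher (edgeR, adjusted p = 5.97e-07). The ratio to pESCs was 11894 (2134 to 469822, adjusted p = 1.58e-06). Without nESC line 1 the first ratio was 2631, and without pESC line 2 the second was 5757. Without nESC line 2 or pESC line 1, which held all the counts of their types, GATA4 was at least 1838-fold and 2055-fold higher in the pXEN lines (adjusted p = 2.23e-05 and 0.000110). Both ESC types were at or under the floor, and a difference between them was not detectable at this depth.

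GATA6 (ENSSSCG00000003702, chromosome 6, 99760293 to 99790611, plus strand) had 2920, 1735 and 3044 counts in pXEN lines, 450 and 434 in nESCs, and 313 and 407 in pESCs. In FPKM these were 96.6, 49.2 and 90.2, then 12.1 and 12.1, then 8.08 and 9.84. The ESC libraries thus all held GATA6 RNA well above the floor, and the pXEN lines did not overlap them. By immunostaining, a measure of protein and not of bulk RNA, the paper reported no GATA6 in pESCs. Fibroblast and feeder markers summed to 65.0 to 196 CPM in the ESC libraries. The part of feeder reads in their GATA6 and FOXA1 counts was not tested. The log2 fold change was 2.69 ± 0.29 (SE) against nESCs, or 6.47-fold (edgeR, adjusted p = 0.000144), and 3.14 ± 0.30 against pESCs, or 8.81-fold (adjusted p = 0.000107). The 2 ESC types were not called different, with a log2 fold change of −0.45 (95% interval −1.13 to 0.24, edgeR adjusted p = 0.290). That difference was called without pXEN line 2 (adjusted p = 0.0140) and with the ESC libraries fitted alone (adjusted p = 0.0388), in each case lower in pESCs.

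Within pXEN cells the FPKM of GATA4 was 2.47, 3.82 and 2.65 times that of GATA6 in lines 1, 2 and 3 (mean 2.98 ± 0.73, SD), whereas in every ESC library GATA6 was the higher of the pair. Of the 6 listed genes with a GATA symbol, GATA4 and GATA6 were on in pXEN cells. The next in level, GATA3, stood at 0.637 FPKM. The list of GATA relatives and their FOG partners had 3 tested genes, of which 0 were called higher and 2 lower in either pXEN comparison, beside 26.2% and 24.4% of all tested genes called lower. GATA2, a factor of blood and trophoblast, was lower in pXEN cells (0, 3 and 0 counts) than in nESCs (53 and 54 counts) and pESCs (115 and 81 counts), with adjusted p values of 0.000587 and 0.000359 (edgeR). ZFPM2, which encodes a FOG cofactor of GATA proteins, had 0 counts in all pXEN lines and 150 and 35 counts in nESCs and was called lower there (edgeR, adjusted p = 0.00115). GATA3 was called lower against pESCs (log2 fold change −2.17, edgeR adjusted p = 0.0272) and not against nESCs.

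SOX17 and SOX7 are HMG box factors of the same SOX subgroup, and in the mouse both are expressed in primitive endoderm. In these libraries they lay at opposite ends. SOX17 (ENSSSCG00000006256, chromosome 4, 83968215 to 83970893, plus strand) had 6923, 6364 and 7281 counts in pXEN lines, 0 and 0 in nESCs, and 21 and 9 in pESCs. Its level in pXEN cells was at least 2526-fold that in nESCs, with 3 counts per library as the bound of the nESC value (edgeR, adjusted p = 1.88e-06). Against pESCs the log2 fold change was 9.11 ± 0.33 (SE), or 552-fold (edgeR, adjusted p = 3.81e-06). Without pESC line 1 it was 9.88. The few pESC counts corresponded to 0.790 and 0.317 FPKM. They were above nESCs by at least 4.58-fold (edgeR, adjusted p = 0.00590). The call was kept in all 14 alternatives in which SOX17 was tested. It did not pass the filter with the ESC libraries fitted alone, so it entered this comparison through its pXEN counts. The bound leaned on pESC line 1, without which it was 2.63-fold (adjusted p = 0.0143).

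SOX7 (ENSSSCG00000027044, chromosome 14, 15286365 to 15293241, minus strand) had 3, 0 and 0 counts in pXEN lines, 2 and 2 in nESCs, and 1 and 3 in pESCs. No library exceeded the floor of 3 counts, and the groups overlapped. Per length, SOX17 exceeded SOX7 in pXEN line 1 by 3420 times (95% counting interval 1170 to 16587), and in lines 2 and 3, where SOX7 was at 0, by at least 3144 and 3597 times. SOX7 RNA was not detectable at this depth in any cell type, and whether the annotated gene model misses transcribed sequence was not tested. Among the 15 genes with a SOX symbol, SOX17 had the highest mean FPKM in pXEN cells, ahead of SOX4 at 168 ± 53.2 FPKM.

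HNF4A (ENSSSCG00000007371, chromosome 17, 52270043 to 52296713, plus strand) had the most counts of the 8, with 12902, 11514 and 13964 in pXEN lines, 0 and 1 in nESCs, and 13 and 9 in pESCs. The pXEN lines lay at 277, 211 and 268 FPKM, and no ESC library exceeded 0.217 FPKM. The pooled ratio of pXEN cells to nESCs was 28156 (95% counting interval 5053 to 1112133) and rests on 1 nESC count (edgeR, adjusted p = 3.22e-07). Without nESC line 1 the ratio was 13778, and without nESC line 2, which held that count, HNF4A was at least 4818-fold higher (adjusted p = 1.99e-05). Against pESCs the log2 fold change was 10.46 ± 0.28 (SE), or 1404-fold (edgeR, adjusted p = 8.88e-07). The pESC lines were called above nESCs (pooled ratio 19.9, 3.21 to 821, edgeR adjusted p = 0.00653), but with 13 and 9 counts both were under 1 FPKM. Without nESC line 1 the ratio was 9.73 (adjusted p = 0.0417), and without nESC line 2 it was at least 3.41 (adjusted p = 0.0168). The call was lost with limma on log2(FPKM + 1) (adjusted p = 0.350).

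The FOXA genes showed all 3 patterns. FOXA1 (ENSSSCG00000001940, chromosome 7, 67342467 to 67346827, plus strand) was on everywhere and graded, with 5112, 5011 and 5322 counts in pXEN lines, 318 and 339 in nESCs, and 1284 and 1307 in pESCs. In FPKM these were 253, 212 and 235, then 12.8 and 14.1, then 49.5 and 47.2, and no groups overlapped. The log2 fold change was 4.11 ± 0.13 (SE) against nESCs (17.3-fold, edgeR adjusted p = 5.41e-07) and 2.28 ± 0.12 against pESCs (4.85-fold, adjusted p = 6.49e-06). Primed lines exceeded naïve-like lines by 1.83 ± 0.13 (3.56-fold, edgeR adjusted p = 5.05e-05).

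FOXA2 (ENSSSCG00000007114, chromosome 17, 34053460 to 34056624, minus strand) was on in pXEN cells and off elsewhere. The counts were 2069, 2558 and 2351 in pXEN lines, 0 and 0 in nESCs, and 3 and 3 in pESCs. Its level in pXEN cells was at least 852-fold that in nESCs (edgeR, adjusted p = 3.22e-07), and its pooled ratio to pESCs was 944 (95% counting interval 433 to 2573, adjusted p = 8.88e-07). The test also called pESCs above nESCs (edgeR, adjusted p = 0.0223) although both were at or under the floor. That call was lost when any of the 4 ESC libraries was left out (adjusted p = 0.0636 to 0.126) and with limma on log2(FPKM + 1) (adjusted p = 0.475).

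FOXA3 (ENSSSCG00000003092, chromosome 6, 47444493 to 47452385, plus strand) had 502, 700 and 504 counts in pXEN lines, 0 and 8 in nESCs, and 69 and 69 in pESCs. In pESCs these were 2.84 and 2.66 FPKM, a level between the other types. The pooled ratio of pXEN cells to nESCs was 156 (95% counting interval 79.2 to 363, edgeR adjusted p = 2.41e-05), and all 8 nESC counts came from nESC line 2. Without that line the remaining nESC library was at 0 and the pXEN level of FOXA3 was at least 212-fold that of nESCs (adjusted p = 3.73e-05). Without nESC line 1 the ratio was 76.6. The log2 fold change against pESCs was 3.32 ± 0.39 (SE), or 9.98-fold (edgeR, adjusted p = 0.000303). Primed lines exceeded naïve-like lines by a pooled ratio of 15.6 (7.70 to 36.8, edgeR adjusted p = 0.00261), and the call was kept without nESC line 1 (ratio 7.63) and without nESC line 2 (at least 21.3-fold, adjusted p = 0.000749).

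Taken as a family, the summed FPKM of the 3 FOXA genes was 361 ± 15.0 (SD, n = 3) in pXEN cells, 13.6 ± 1.21 (n = 2) in nESCs and 51.2 ± 1.78 (n = 2) in pESCs. FOXA1 made up 64.6% ± 3.11 of this sum in pXEN cells, FOXA2 27.8% ± 1.94 and FOXA3 7.58% ± 1.33. In the 4 ESC libraries FOXA1 made up 94.4% to 100% of the sum. The FOXA RNA of ESCs was thus nearly all FOXA1, and the share of FOXA2 was at most 0.211% in an ESC library and at least 26.0% in a pXEN library. Among the 32 listed genes with a FOX symbol, FOXA1 and FOXA2 had the highest mean FPKM in pXEN cells. In nESCs the highest was FOXH1, a partner of SMAD proteins in Nodal signaling, at 75.1 ± 12.5 FPKM.

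**Figure D2:**
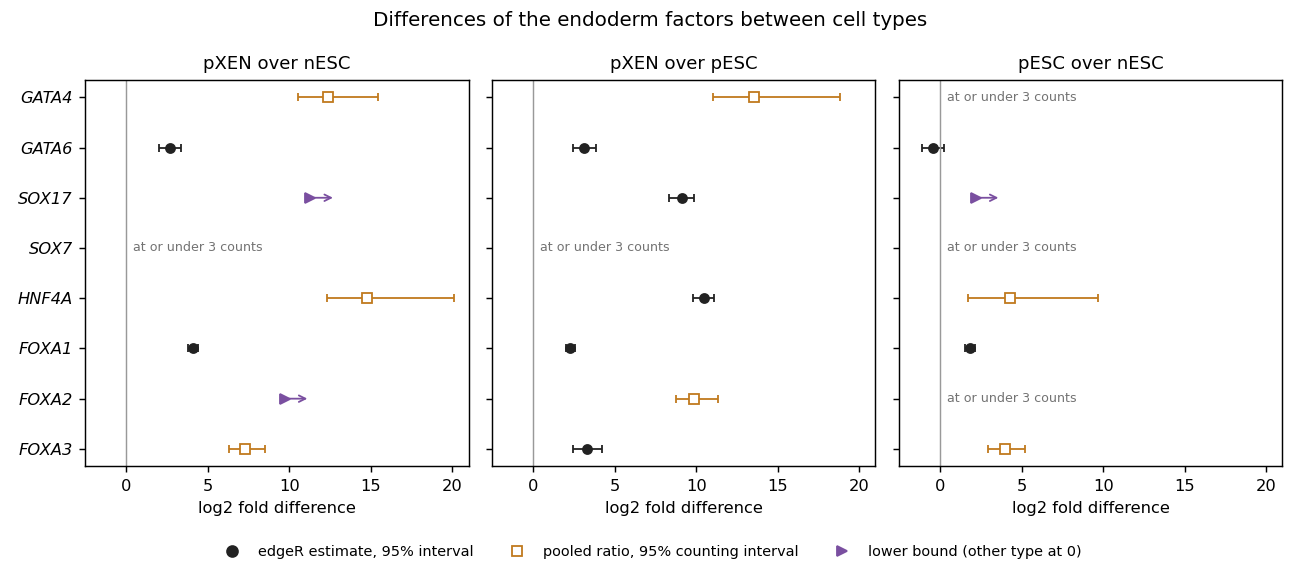
Log2 fold difference of each factor in the 3 comparisons. Filled circles are edgeR estimates with 95% intervals, open squares are pooled count ratios with 95% counting intervals where a type had 1 to 8 counts in all, and triangles with arrows are lower bounds where a type had 0 counts. GATA6 and FOXA1, on in all cell types, had the smallest differences of pXEN cells against nESCs, 2.69 and 4.11. Lower bounds are shown for SOX17 and FOXA2 in pXEN over nESC and for SOX17 in pESC over nESC.

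The plot of log2 fold differences sets the factors side by side. GATA6, FOXA1 and FOXA3, the factors on in pESCs, differed from pXEN cells by 2.28 to 3.32 on the log2 scale, and SOX17 and HNF4A, low in pESCs, by 9.11 and 10.46. In bulk RNA, fewer expressing cells and less RNA per cell cannot be told apart. The ESC counts of GATA6, FOXA1, FOXA3, SOX17 and HNF4A thus do not say whether all cells held a little or a few held more.

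Within pXEN cells the factors differed little from line to line, apart from GATA6. The highest line exceeded the lowest by 1.06 times for FOXA2, 1.19 times for FOXA1, 1.27 times for both GATA4 and SOX17, 1.31 times for HNF4A and 1.33 times for FOXA3, against a median of 1.37 times over the 15027 genes that averaged 10 or more counts in these lines. For GATA6 the ratio was 1.97, higher than in 81.2% of those genes. Line 2 was the low line, at 0.526 times the mean of lines 1 and 3. On the log2 scale line 2 lay below that mean for GATA6 (−0.93), HNF4A (−0.37), GATA4 (−0.35), SOX17 (−0.30) and FOXA1 (−0.20), and above it for FOXA2 (0.07) and FOXA3 (0.33). These are values of 1 line and carry no test.

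**Figure D3:**
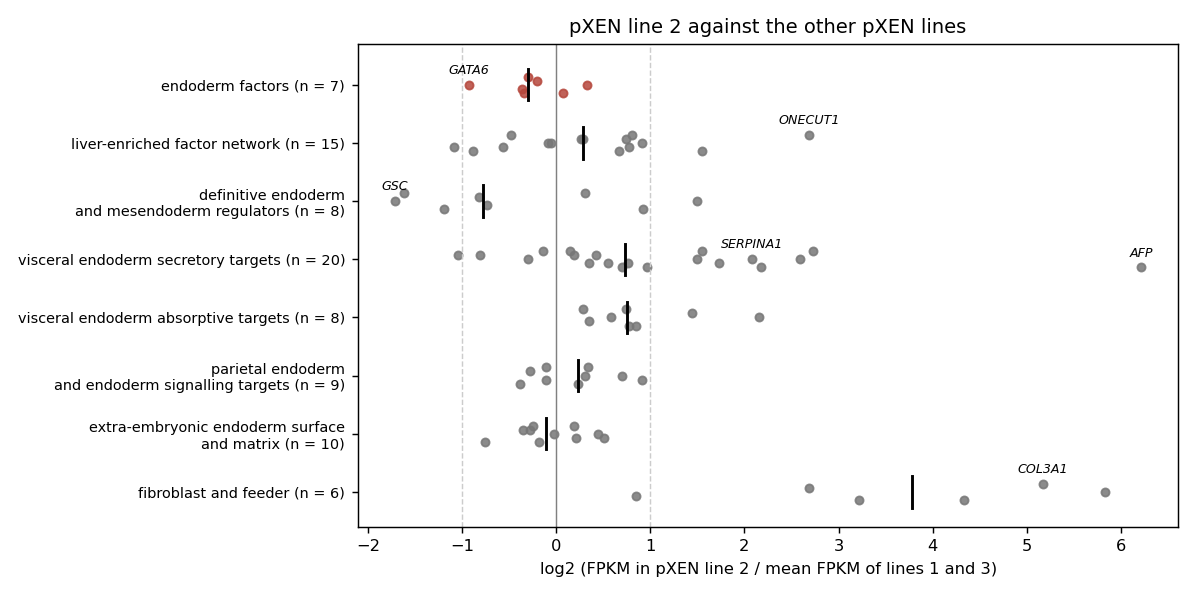
Log2 ratio of the FPKM in pXEN line 2 to the mean of lines 1 and 3, for the 7 expressed factors (red) and the genes of 7 other lists (grey) that averaged 10 or more counts in pXEN lines. Black bars are medians and dashed lines mark a log2 ratio of 1 in either direction. The factors have a median of −0.30, the mesendoderm regulators −0.78, the secretory genes 0.73 and the fibroblast markers 3.78.

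The same line differed in other genes of the endoderm. The 8 regulators of definitive endoderm and mesendoderm had a median log2 ratio of −0.78, with 3 of the 8 below −1 and 1 above 1, against 6.44% and 5.14% of all genes. The 3 below −1 were GSC (140, 52 and 169 counts in lines 1, 2 and 3), MIXL1 (187, 94 and 202) and LHX1 (971, 407 and 1304). The 20 secretory genes of visceral endoderm had a median of 0.73, with 8 of them above 1 and 1 below −1. AFP, the fetal albumin-like protein, had 60, 4037 and 37 counts, and SERPINA1, which encodes α1-antitrypsin, had 8976, 40767 and 8354. The fibroblast markers were higher in the same library, with 20, 4251 and 203 counts of COL3A1, a fibrillar collagen gene. Their part in the GATA6 value was not tested. Without line 2 the log2 fold changes of all 7 tested factors kept their direction and call in both pXEN comparisons.

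The liver-enriched factors that work with HNF4A and the FOXA proteins were mostly higher in pXEN cells, with exceptions. Of 15 tested genes, 10 were called higher and 1 lower against nESCs, and 10 higher and 2 lower against pESCs. The shares over all tested genes were 28.3% and 26.2%, and 23.9% and 24.4%. The median log2 fold changes were 1.88 and 2.95, against 0.00 and −0.01 over all tested genes. HHEX, a homeodomain factor of anterior visceral endoderm and liver, had a log2 fold change of 5.72 ± 0.34 (SE) against nESCs and 4.46 ± 0.31 against pESCs. TBX3, a T-box factor, was at least 341-fold higher than in nESCs. NR2F1, an orphan nuclear receptor also known as COUP-TFI, was lower in pXEN cells than in both ESC types (log2 fold changes −3.16 and −2.63, edgeR adjusted p = 6.08e-05 and 0.000212).

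Of the 8 tested regulators of definitive endoderm and mesendoderm, 5 were called higher and 2 lower in each pXEN comparison. Of all tested genes, 28.3% and 23.9% were called higher and 26.2% and 24.4% lower, so the lower calls lay at the general share. MIXL1 had no count in any ESC library and was at least 59.9-fold higher than in nESCs. GSC was at least 44.9-fold higher than in nESCs. OTX2, a homeodomain factor of visceral endoderm and epiblast, was 126 ± 35.9 FPKM in pXEN cells, 6.73 ± 3.37 in nESCs and 58.3 ± 15.9 in pESCs, and was called higher in pXEN cells in both comparisons (edgeR, adjusted p = 7.77e-05 and 0.0261). CXCR4, a chemokine receptor used as a surface mark of definitive endoderm, was lower, with log2 fold changes of −1.40 and −3.50 (edgeR, adjusted p = 0.0300 and 0.000465). FOXH1 was lower as well (−3.97 and −1.92).

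Among genes known to be driven by these factors, those secreted by visceral endoderm were mostly called. Of 20 tested, 18 were called higher than in nESCs and 19 higher than in pESCs, with median log2 fold changes of 10.32 and 8.78 and none called lower. Of all tested genes, 28.3% and 23.9% were called higher. APOE, an apolipoprotein, reached 8495 ± 484 FPKM in pXEN cells against 1.14 ± 0.138 in nESCs and 54.0 ± 11.4 in pESCs. TF, which encodes transferrin, had 5371, 10017 and 5836 counts in pXEN lines, 0 in both nESC lines and 6 and 10 in pESCs. AFP was not called in either comparison (edgeR, adjusted p = 0.0550 and 0.0580), and most of its counts lay in line 2, and ALB had 0, 57 and 2 counts.

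Of the absorptive genes of visceral endoderm, 7 of 10 were called higher and 1 lower against nESCs, and 6 higher and 1 lower against pESCs, beside 28.3% and 26.2%, and 23.9% and 24.4%, of all tested genes. AMN, the partner of cubilin in endocytosis, had 78, 161 and 84 counts in pXEN lines and 0 in all ESC lines, whereas CUBN, which encodes cubilin, had at most 1 count in a pXEN line. SLC39A4, a zinc importer, was higher in both comparisons (log2 fold changes 6.22 and 5.66). FOLR1, a folate receptor, was lower in pXEN cells than in pESCs (−5.29, edgeR adjusted p = 0.000168). Genes of parietal endoderm and endoderm signaling were called higher in 7 of 10 cases in each comparison, and lower in 1 and 2, which lies near or under the 26.2% and 24.4% of all tested genes. THBD, which encodes the parietal endoderm marker thrombomodulin, was lower than in nESCs and pESCs, with 0, 10 and 2 counts in pXEN lines (edgeR, adjusted p = 0.0460 and 0.000339). SNAI2 did not pass the filter. All 10 surface and matrix genes were called higher against nESCs and 9 against pESCs (28.3% and 23.9% of all tested genes), the exception being SPARC (log2 fold change 0.20, edgeR adjusted p = 0.497). These lists were chosen with results of these libraries known, so their counts are no independent evidence of direction.

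For each factor that was on in pXEN cells, the 3 genes with the most similar profile were sought by Euclidean distance on log2(FPKM + 1) over the 7 libraries. TF, a secretory gene, was among the 3 for GATA4, HNF4A and SOX17, and SLC7A9, an amino acid transporter, for GATA4. GATA4 and HNF4A were each other's nearest gene, at a distance of 0.443, and SOX17 was nearest to HNF4A at 0.760. FOXA2 lay nearest to PROC, the gene of the anticoagulant protein C (0.293), and to IHH, the ligand Indian hedgehog (0.313), and AP1M2 was the next. PROC stood at 95.4, 91.7 and 103 FPKM in pXEN lines and at no more than 0.146 FPKM in an ESC library.

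The factors shared with ESCs had other neighbours. FOXA1, graded over the 3 types, lay nearest to F11R, a tight junction protein (0.766), SLC9A3R1 (0.926) and SEPP1 (1.09). F11R followed the same order with means of 212 FPKM in pXEN cells and 17.0 and 17.7 FPKM in nESC lines, and 63.8 and 61.8 FPKM in pESC lines. GATA6 lay nearest to ABCA1, a cholesterol exporter (0.947), PRKCD (0.960) and B4GALT1 (0.984), and FOXA3 to TMPRSS2, a membrane protease (0.605), EDG1 (0.621) and TMC4 (0.648). These distances over 7 libraries of 3 types are a description. With a pseudocount of 0.1 in place of 1, 15 of these 21 neighbours were named again.

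In the genome, 23 genes or unannotated transcripts were listed within 100000 bases of a factor, and none overlapped it. Of the 19 tested, 10 were called higher and 4 lower in pXEN cells than in nESCs, and 7 higher and 3 lower than in pESCs. Over all tested genes 28.3% and 26.2% were called higher and lower in the first comparison and 23.9% and 24.4% in the second, so the lower calls were near or under the general share. GATA6 had no listed neighbour. R3HDML, 45054 bases from HNF4A on the same strand, had 963, 266 and 1523 counts in pXEN lines, 0 and 0 in nESCs and 0 and 1 in pESCs. It was at least 341-fold higher than in nESCs (edgeR, adjusted p = 0.000661). GDAP1L1, on the same side of HNF4A at 86856 bases, was called lower, with 2, 0 and 0 counts in pXEN lines against 53 and 74 in nESCs (edgeR, adjusted p = 0.000497). SERINC3, at 93590 bases from HNF4A, was called higher than in nESCs (edgeR, adjusted p = 0.000405) and not called against pESCs. TTPAL and FITM2, also beside HNF4A, were not called in either comparison.

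Beside GATA4, FDFT1, which encodes squalene synthase, had 3853, 4463 and 3912 counts in pXEN lines against 1178 and 1081 in nESCs and 2237 and 2286 in pESCs, and CTSB, the gene of the protease cathepsin B, followed the same order. Both were called higher in both comparisons. NEIL2, closest to GATA4 at 9415 bases, was not called. PINX1, 22284 bases from SOX7, was expressed in all types and lower in pXEN cells, with 134, 278 and 183 counts against 339 to 465 in ESCs. Of the named genes around FOXA3, SYMPK, at 740 bases, was not called in either comparison, IRF2BP1 was lower than in nESCs (edgeR, adjusted p = 0.00215), and NOVA2, a neural splicing factor, had 4, 2 and 7 counts in pXEN lines against 57 to 140 in ESCs. MYPOP was not called and NANOS2 was listed at 0.

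Several transcripts without annotation lay close to the factors and were chosen for naming after their values were seen. One of 14276 bases, 2074 bases from FOXA2 on the same strand, had 735, 668 and 906 counts in pXEN lines and 0 in all 4 ESC libraries, so it was at least 283-fold higher than in nESCs and 313-fold than in pESCs. Another, 2596 bases from SOX17 on the opposite strand and head to head, was counted 388, 133 and 443 times in pXEN lines and 0 to 2 times in ESC libraries. A second near SOX17, at 24569 bases on the same strand, had 143, 48 and 134 counts and again 0 to 2 in ESCs. In both, as in R3HDML and in SOX17, HNF4A, GATA4, GATA6 and FOXA1 themselves, line 2 was the low pXEN line. A transcript 38 bases from FOXA1 on the opposite strand had 110, 94 and 99 counts in pXEN lines, 3 and 6 in nESCs and 55 and 40 in pESCs, in the order of FOXA1 itself. The labels call the libraries directional, but whether reads were counted by strand is not stated in the sources used here. Reads from a factor and from a transcript beside it may therefore not be fully separated, and whether the transcripts near FOXA2 and FOXA1 belong to those genes was not tested.

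**Figure D4:**
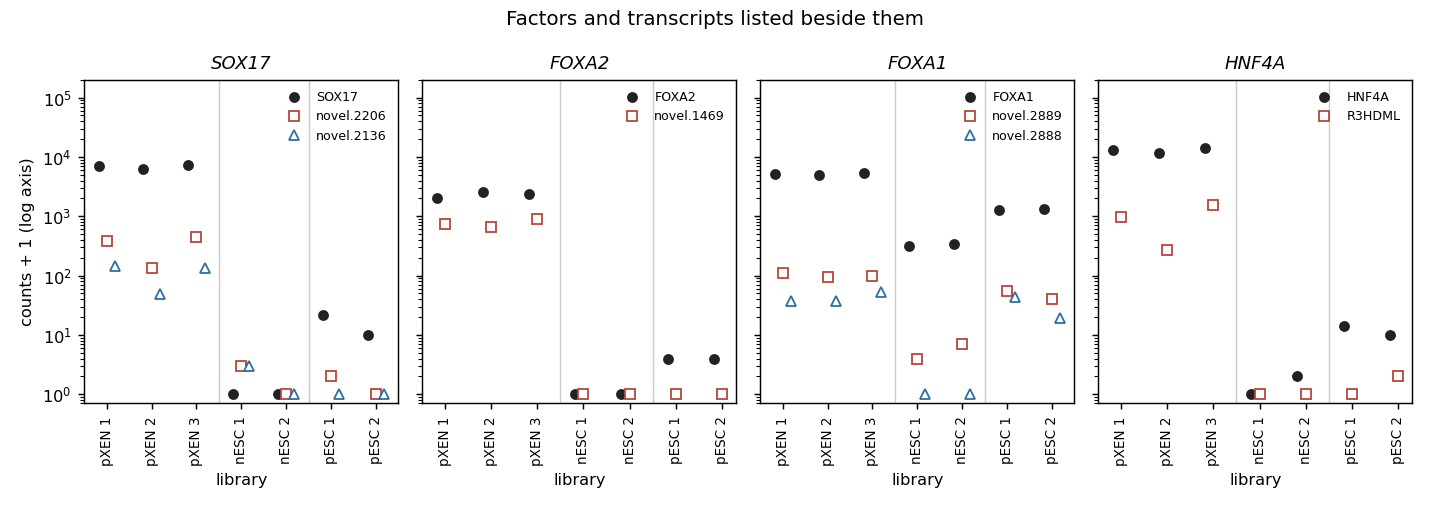
Counts plus 1, on a log axis, of SOX17, FOXA2, FOXA1 and HNF4A (filled circles) and of transcripts listed beside them (open symbols, with the names given in the tables) in the 7 libraries. Each symbol is 1 library. The transcripts beside SOX17 and FOXA2 and R3HDML beside HNF4A had at most 2 counts in an ESC library, and those beside FOXA1 were also counted in pESCs.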

How the data were processed

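Per the labels and methods, rRNA-depleted directional libraries were aligned with HISAT2 2.0.5 to Sscrofa10.2 and counted with featureCounts 1.5.0-p3; the submitters' processing notes also name edgeR 3.22.5. The authors deposited raw read counts per gene, not normalized, and FPKM values, in which counts are divided by gene length and by a normalized library size that differs from the total count.

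The counts were tested with edgeR 4.0.16 (R 4.3.3): TMM, filterByExpr, 1 quasi-likelihood model of all 7 libraries, Benjamini-Hochberg adjustment over 17447 genes, calls at adjusted p below 0.05. SE is the log2 fold change divided by the root of F. The fit was tested on simulated data. FPKM gave levels, with 3 counts as the floor and exact 95% intervals. Alternatives used limma 3.58.1, DESeq2 1.42.0, other scalings and filters, and left-out libraries.

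The members and lists were chosen with earlier results of these data known. Named from lists of more than 6 tested genes were the 2 with most pXEN counts and the 2 called with the largest and the 2 with the lowest fold change, and from shorter lists all; 1 gene so chosen is not reported here. AFP, ALB, CUBN, SNAI2, POU5F1, DPPA4, ZFP42 and the genes picked within a symbol family were named after their values were seen. Sequences were not analysed here.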

Additional observations from a re-analysis of the deposited data

How the results depend on the processing

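In both pXEN comparisons, the 7 tested factors kept their direction and call under every alternative in which they were tested. With at least 10 counts required in every library, GATA6 and FOXA1 alone were tested, so 2, 2 and 1 factors were called higher (pXEN against nESC, pXEN against pESC, pESC against nESC). Between the ESC types, the 5 calls fell to 3 with limma on log2(FPKM + 1) and to 2, of 3 tested, with the ESC libraries fitted alone. Left-out libraries gave 4 to 5. GATA6 was then the 1 factor called lower, with the ESC libraries alone and without pXEN line 2 (0 to 1 over left-out libraries). FOXA3, low in nESCs, left that class (0 factors) with off set at 10 counts and without nESC line 2 (0 to 1). Between ESC types, GATA4 had 0 to 2 counts a library, so its fitted value (−0.96, never called) is no measure of a difference: it went from −3.14 to 2.20 over left-out libraries, the ends being fits in which a type had 0 counts. With 1 ESC library left, it was assumed to vary like the other groups.

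The labels do not say that equal line numbers share a day or source, and same-numbered lines deviated together with correlations of 0.00 to 0.10. A fit with the line number as a replicate block called 7, 7 and 5 factors higher. Upper-quartile scaling moved the median log2 fold change of all genes in pXEN against nESC by −0.16 and called 4348 genes higher and 5621 lower, and the factors' calls were the same. A count of 0 allows up to 0.231 to 0.288 CPM.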
